A study of Mus musculus with 32 samples.

Results

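Open chromatin was examined at 9 genes that encode regulators of chromatin known from clonal haematopoiesis and leukaemia: Dnmt3a, Tet2, Asxl1, Ezh2, Kdm6b, Kmt2a, Men1, Dot1l and Mllt3. A peak belonged to a gene when that gene's protein-coding model in GRCm38 was the nearest one and lay within 50 kb. Of 1054860 peaks in 16 lists, 910 belonged to the 9 genes, and overlapping peaks of the full lists merged into 118 of 146713 regions. Such links rest on position alone and say nothing of the gene that a region controls.

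DNA methylation is written by Dnmt3a and oxidised, as the first step of its removal, by Tet2. Ezh2 is the methyltransferase of Polycomb repressive complex 2, Kdm6b removes the mark that Ezh2 writes, and Asxl1 is a scaffold of the BAP1 deubiquitinase complex. Kmt2a (MLL) is a histone H3 lysine 4 methyltransferase that binds chromatin through menin, the product of Men1. In the MLL-AF9 leukaemia fusion, part of KMT2A is joined to part of MLLT3 (AF9), a reader of acylated histones that recruits the histone H3 lysine 79 methyltransferase Dot1l.

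The cells were haematopoietic stem and progenitor cells (HSPCs) sorted from mouse bone marrow as lineage-negative, cKit-positive and Sca1-positive, and ATAC-seq marked their open DNA. All mice were lethally irradiated C57BL/6J recipients (CD45.2) of 800000 wild-type marrow cells (CD45.1+/2+), and the sorted cells came from this wild-type graft. AF9-experienced mice also received 200000 marrow cells (CD45.1) homozygous for hMLL-AF9 and for rtTA, the doxycycline-dependent activator. Naive mice received the same number of hMLL-AF9-null cells (CD45.1) homozygous for rtTA only. Doxycycline was started 6 to 8 weeks after transplantation, given for 5 weeks and then withdrawn for 4 weeks in the model. PBS or LPS, a bacterial lipopolysaccharide that stimulates Toll-like receptor 4, was given 24 hours before the mice were killed. Naive mice gave 4 lists after PBS and 3 after LPS, and AF9-experienced mice gave 4 after PBS and 5 after LPS. The age of the mice is not given in the sources used here.

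The lists held 19448 to 88816 peaks. The 3 shortest, called short lists here, were naive PBS 1 with 19448 peaks, AF9-experienced PBS 1 with 25685 and naive LPS 3 with 39464. To compare lists, each was cut to its 19100 strongest autosomal peaks by the authors' -log10 p, and a region's value is the percentile rank of its strongest peak in that list. The scale runs to 100 for the top peak, and a region without a peak among the 19100 has the value 0, which is not the same as closed chromatin. Of 8 HSPC marker genes, 6 had a gene-end peak in all 16 equal-length lists (Kit, Cd34, Meis1, Mecom, Flt3 and Runx1), Gata2 had one in 2 lists and Ly6a, which encodes the sorting antigen Sca1, in none. None of the 4 T lymphocyte, 4 B lymphocyte and 4 neutrophil markers had such a peak in any equal-length list. Of the 4 monocyte-macrophage markers, Cd68 had one in 9 lists, Adgre1 in 4, and Csf1r and Ccr2 in none. The erythroid genes Klf1 and Epor and the stromal gene Col1a1 had one in all 16.

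The sequences just before the start sites are printed for 2 genes with a strong and a weak start, for Ezh2, whose start region was the strongest of the 9 genes, and for Dot1l, whose start and body are compared below. They are the 250 bases before the start in RefSeq (GRCm38), read 5′ to 3′ along the gene, with each CpG in capitals. Dnmt3a has a first start at chr12:3806730-3806979 and an internal one at chr12:3891494-3891743, both on the plus strand. Mllt3 has a first start at chr4:88033408-88033657 and an internal one at chr4:87806324-87806573, both on the minus strand. The Ezh2 stretch is chr6:47595031-47595280, minus strand, and the Dot1l stretch is chr10:80754953-80755202, plus strand.
Dnmt3a first start: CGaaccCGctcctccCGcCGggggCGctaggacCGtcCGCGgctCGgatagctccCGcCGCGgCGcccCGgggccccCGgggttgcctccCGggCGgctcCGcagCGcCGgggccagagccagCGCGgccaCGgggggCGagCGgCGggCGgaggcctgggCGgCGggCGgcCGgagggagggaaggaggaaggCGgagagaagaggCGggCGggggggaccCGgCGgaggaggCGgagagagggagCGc
Dnmt3a internal start: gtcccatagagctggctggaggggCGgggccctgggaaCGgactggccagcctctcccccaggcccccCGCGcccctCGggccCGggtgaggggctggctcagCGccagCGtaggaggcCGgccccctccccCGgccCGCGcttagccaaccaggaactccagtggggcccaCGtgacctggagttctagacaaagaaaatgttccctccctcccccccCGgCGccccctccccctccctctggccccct
Mllt3 first start: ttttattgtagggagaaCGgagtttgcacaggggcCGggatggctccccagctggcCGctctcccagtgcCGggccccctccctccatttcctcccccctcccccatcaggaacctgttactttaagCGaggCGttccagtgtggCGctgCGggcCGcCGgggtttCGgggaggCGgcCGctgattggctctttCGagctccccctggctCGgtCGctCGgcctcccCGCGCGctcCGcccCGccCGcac
Mllt3 internal start: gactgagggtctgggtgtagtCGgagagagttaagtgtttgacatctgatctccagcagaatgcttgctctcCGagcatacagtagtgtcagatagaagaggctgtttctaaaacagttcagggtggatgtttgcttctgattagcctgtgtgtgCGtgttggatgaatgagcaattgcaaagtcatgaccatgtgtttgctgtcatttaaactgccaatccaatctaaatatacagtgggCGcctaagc
Ezh2 start: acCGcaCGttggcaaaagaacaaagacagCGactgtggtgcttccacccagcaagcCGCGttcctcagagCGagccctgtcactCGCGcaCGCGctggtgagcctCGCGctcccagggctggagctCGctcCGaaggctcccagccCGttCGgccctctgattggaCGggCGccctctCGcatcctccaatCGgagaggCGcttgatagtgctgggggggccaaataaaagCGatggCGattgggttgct
Dot1l start: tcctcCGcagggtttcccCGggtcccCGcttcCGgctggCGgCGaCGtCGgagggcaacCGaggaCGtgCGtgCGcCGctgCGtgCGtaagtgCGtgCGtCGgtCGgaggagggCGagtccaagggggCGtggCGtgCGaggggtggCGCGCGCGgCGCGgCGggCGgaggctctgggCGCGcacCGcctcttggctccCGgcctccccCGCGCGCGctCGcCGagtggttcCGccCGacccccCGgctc

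The first start of Dnmt3a holds 38 CpG and the internal start 15, and for Mllt3 the counts are 23 and 4. The Ezh2 stretch holds 23 CpG and the Dot1l stretch 44, beside a median of 6 over the 32851 promoters of the same length in the RefSeq table. The peak at the first Dnmt3a start ranked between 47.0 and 72.1 and was in all 16 equal-length lists. That at the internal Dnmt3a start ranked between 0 and 34.0 and was in 14. At Mllt3 the first start was in all 16 lists at 65.9 to 86.3, and the internal start was in 2, at most at 5.31. The full lists held a weaker peak at the internal Mllt3 start in 14 of 16. In these 2 genes, shown because their starts differ, the start with more CpG was the stronger one. Across genes this order did not hold. The Tet2 start, with 51 CpG, had a median of 68.1, and the Asxl1 start, with 11, a median of 82.3.

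Short motifs were counted on both strands of the 13 promoter entries of 8 of the genes. The GC box (GGGCGG) was in 11 of the 13, against 32.7% of all promoters in the table. The ETS core (GGAAG) was in 8, against 64.1% of all, the CCAAT box (CCAAT) in 6, against 33.8%, and the RUNX motif (TGTGGT) in 2, against 14.0%. A loose NF-kB motif (GGG, 5 bases of any kind and CC), which can overlap a GC box, was in 7, against 45.8%. None of the 13 held the AP-1 (TGANTCA), cAMP response (TGACGTCA), GATA motif (AGATAA), C/EBP (TTGCNNAA) or IRF (GAAA, any 2 bases and GAAA) letters, which 6.75%, 1.55%, 9.99%, 9.56% and 2.98% of all promoters held. The entries of 1 gene overlap or lie close to each other, so they are not independent, and a match of letters is not a binding site. The shares of all promoters are not matched for base composition. GC content ran from 45.2% at the internal Mllt3 start to 83.6% at the Tet2 start, beside a median of 52.4% over all promoters. The Ezh2 stretch printed above holds 3 CCAAT matches and a RUNX match, and the Dnmt3a first start 5 GC boxes.

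Among the equal-length lists, 30 merged regions belonged to the 9 genes, of 31846 in all. A peak in at least 3 lists was required for testing, and 24 of the 30 passed, among 23554 regions tested. Of the 24, 11 lay at gene ends, within 1 kb of either end of a gene model or of a listed start, and 13 lay elsewhere in or near the gene. Every gene had at least 1 peak in each of the 16 equal-length lists. The number of peaks in the 9 genes was 20 to 25 per equal-length list and 24 to 73 per full list. The 6 untested regions, each in 1 or 2 equal-length lists, were 3 of Mllt3 and 1 each of Dnmt3a, Men1 and Ezh2.

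**Figure D1:**
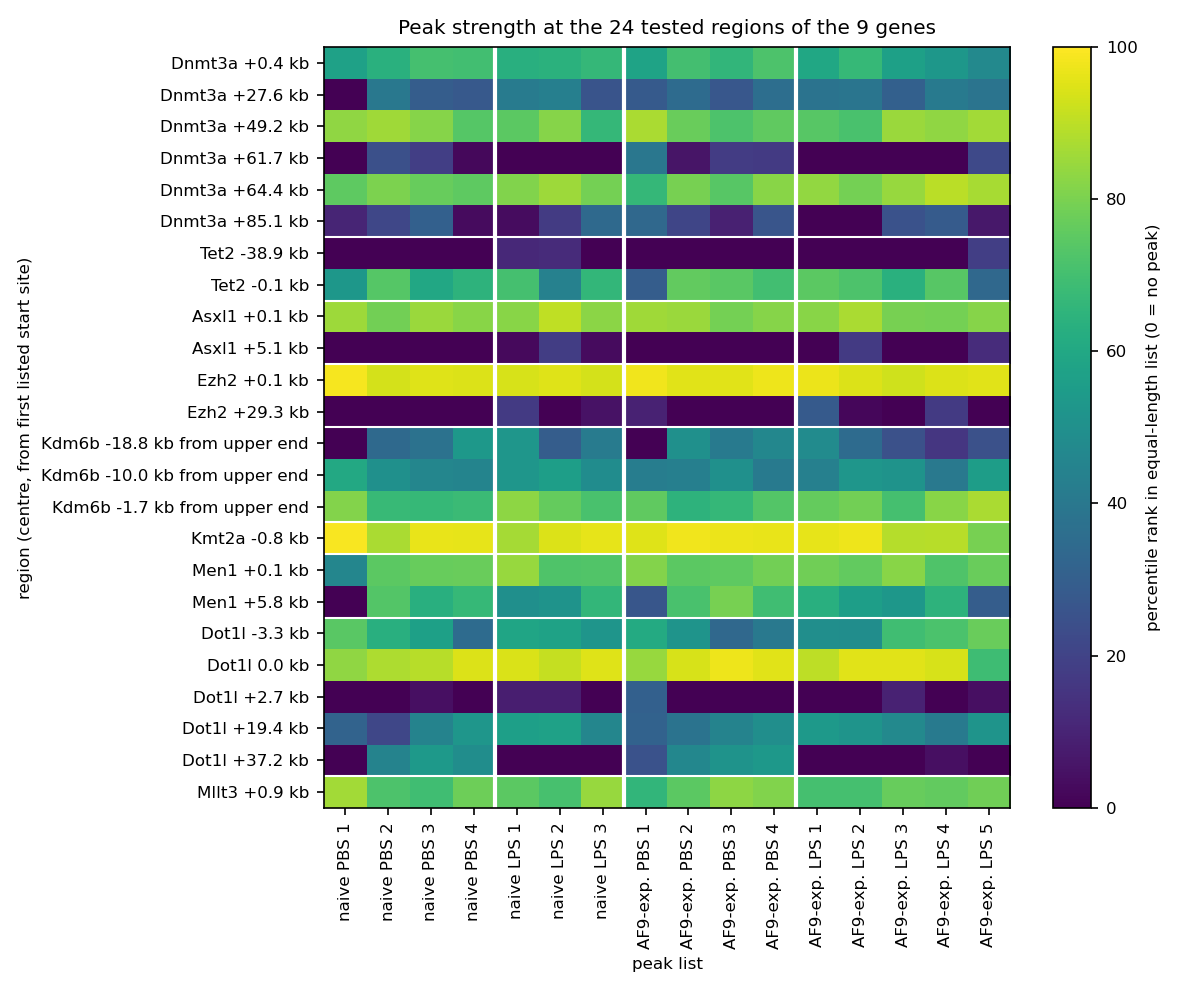
Percentile rank of the strongest peak at each of the 24 tested regions (rows, labelled by the distance of the centre from the first listed start site, or for Kdm6b from the upper end of its model) in each of the 16 lists (columns, by group). Start regions of Ezh2, Kmt2a and Dot1l are bright in every list, and the Dot1l region at +37.2 kb is dark in all LPS lists.

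The strongest of these regions were the starts of 3 histone methyltransferase genes. Over the 16 lists the Ezh2 start (chr6:47594086-47595691) ranked at 95.4 ± 1.64 (SD, n = 16). The Kmt2a start (chr9:44880905-44883234) stood at 93.4 ± 5.45 and the Dot1l start (chr10:80754898-80755485) at 90.7 ± 7.10. Neighbours in this order differed by less than the larger of their SDs. Against all 10990 gene-end regions tested, 94.1%, 91.0% and 86.2% ranked lower than the Ezh2, Kmt2a and Dot1l starts.

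The Asxl1 start followed at 83.0 ± 3.24 (SD, n = 16). The Mllt3 start at 75.8 ± 5.83, the Men1 start at 75.1 ± 8.53 and the upper end of Kdm6b at 74.4 ± 6.83 could not be told apart by their spread. The starts of the 2 genes of DNA methylation were lower and close to each other, Dnmt3a at 62.7 ± 7.0 and Tet2 at 62.5 ± 14.9. They lay near the middle of all gene ends, whose median was 65.1 with quartiles of 34.1 and 83.8. The far end of Men1 (chr19:6339957-6341582), which also overlaps the model of Map4k2, averaged 55.2 ± 20.7. Of the 11 gene-end regions, 9 had a peak in all 16 lists, beside 72.3% of all gene-end regions tested.

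Of the 13 tested regions away from gene ends, 5 had a peak in all 16 lists. Dnmt3a and Dot1l carried 4 each. In Dnmt3a, strong regions 49.2 and 64.4 kb after the first start ranked between 66.5 and 89.8 in all 16 lists. A region 27.6 kb after that start was in 15 lists at up to 43.2, and naive PBS 1 lacked it. Dot1l had a region 3.30 kb before its start and another 19.4 kb after it in all 16 lists. Kdm6b, which removes the mark written by Ezh2, had an inner region 10.0 kb below its upper model end in all 16, at 40.5 to 60.2. Exons and introns are not told apart in the annotation used, so these are described only as inside the gene model.

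Most peaks of Mllt3 and Kmt2a were weak. Mllt3 had 203 peaks in 34 regions of the full lists, the most of the 9 genes, but only its start region was tested. Kmt2a had 80 peaks in 16 regions of the full lists, and again only its start was tested. Mllt3 has the longest model of the 9 genes, at 263 kb.

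LPS was compared with PBS to ask how an inflammatory challenge alters open chromatin at these genes. In AF9-experienced mice 1 of the 24 regions was called, a region inside Dot1l that ranked lower after LPS. No region was called higher. Calls were made at a Benjamini-Hochberg adjusted p under 0.05 with limma, adjusted over all 23554 regions. Of all regions, 5.18% were called in this comparison, 3.44% higher and 1.74% lower. The 1 lower region is 4.17% of the 24, so the share of calls at the 9 genes is near the background. The median difference over the 24 was -0.50 percentile points, and -0.18 over all regions tested.

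The called region (chr10:80791601-80793166) lies inside the Dot1l model, centred 37.2 kb after the start and 2.93 kb from the model of Plekhj1. Its rank in the AF9-experienced PBS lists was 25, 46.3, 51.2 and 53.2. In the 5 AF9-experienced LPS lists it was 0, 0, 0, 4.01 and 0. The groups did not overlap, in a region picked because it was called. The share of all regions without such overlap is not given here. The single peak left among the LPS lists was near the bottom of its list. The means were 43.9 ± 12.9 (SD, n = 4) and 0.802 ± 1.79 (SD, n = 5), a difference of -43.1 percentile points (SE 9.14, limma adjusted p = 0.00678). Only 1 LPS list held a peak, so the region passed the filter of 3 lists through PBS lists, where it is high. Its p-values, here and below, are therefore a description. With no filter on the number of lists the call held (limma adjusted p = 0.0144).

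In naive mice the same region ranked at 0, 44.6, 54.0 and 48.9 after PBS and at 0 in all 3 LPS lists. The PBS list without a peak is naive PBS 1, the shortest list. The difference was -36.9 (SE 10.4) and missed the threshold (limma adjusted p = 0.0537). Without naive PBS 1 it was -49.2 (limma adjusted p = 0.00183) and without AF9-experienced PBS 1 it was -36.9 (limma adjusted p = 0.0354), and in both the naive difference was called. The difference between the 2 LPS changes was -6.24 (SE 13.8) and was not called.

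A weaker peak remained there after LPS. The full lists held a peak in all 8 LPS lists and in 7 of the 8 PBS lists, naive PBS 1 being the exception. Without the short lists, the authors' fold enrichment of the strongest peak was 10.7 to 15.4 in 6 PBS lists and 3.33 to 6.07 in 7 LPS lists. Its rank was 8794 to 10574 in those PBS lists and 18335 to 44631 in those LPS lists, counted from the strongest peak. The peaks were also narrower after LPS, 473 to 1247 bp against 969 to 1538 bp, with overlap between the groups.

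**Figure D2:**
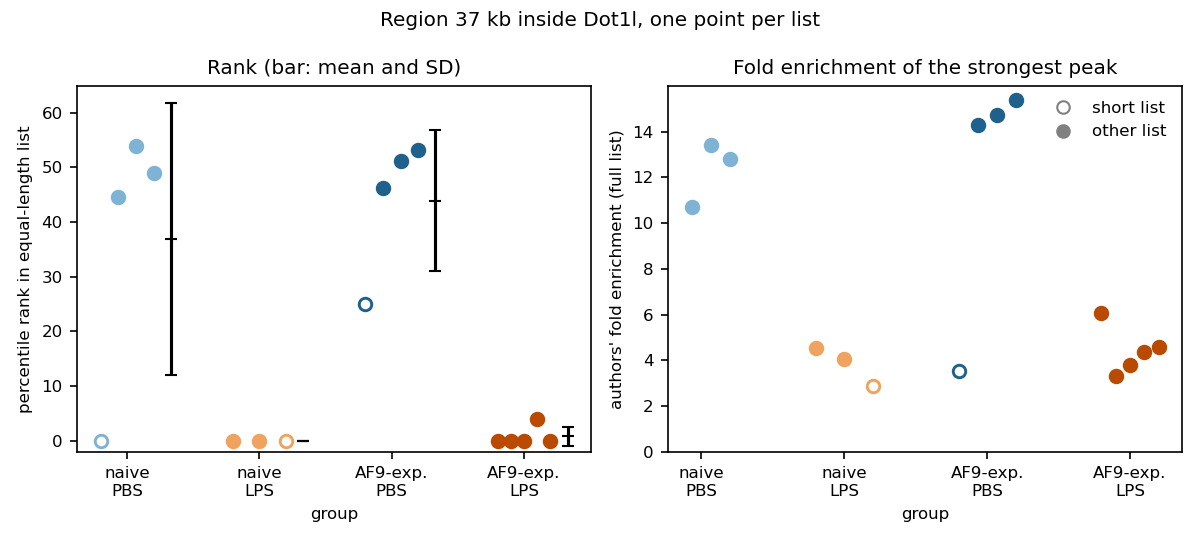
The Dot1l region centred 37.2 kb after the start: percentile rank in the equal-length list (left, with mean and SD per group) and the authors' fold enrichment of the strongest peak in the full list (right), 1 point per list and open points for short lists. All LPS lists lie at or below 4.01 on the left and at or below 6.07 on the right, where naive PBS 1 has no peak.

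List quality moved with treatment. The median fold enrichment over the 19100 strongest peaks was 13.9 to 19.4 in the 6 PBS lists that are not short and 9.16 to 13.6 in the 7 such LPS lists. With this median as a covariate, a fit added after seeing the data, the Dot1l difference was -31.6 in AF9-experienced mice (limma adjusted p = 0.0118) and -28.0 in naive mice (limma adjusted p = 0.0473). Among the lists that are not short, this median does not overlap between treatments, so the fit cannot separate list enrichment from treatment. The AF9-experienced call held in all 16 fits without 1 list (limma adjusted p of 4.4e-04 to 0.0333). It was lost with full lists (-17.4, limma adjusted p = 0.773), with half-length lists (-2.20, limma adjusted p = 0.785), with lists at a -log10 q of at least 5 (-24.3, limma adjusted p = 0.530) and where a peak had to cover 50% of the region (-37.7, limma adjusted p = 0.138). Ranked by fold enrichment, the region had a peak in too few lists to be tested.

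None of the other 4 tested regions of Dot1l was called. Its start ranked at 69.0 to 97.3 over all lists and differed by -3.94 (SE 4.31) after LPS in AF9-experienced mice, which was not called. The region 19.4 kb after the start differed by 8.14 (SE 6.75) there and by 15.6 (SE 7.69) in naive mice, neither called. The region 2.65 kb after the start, with a peak in few equal-length lists, differed by -4.94 (SE 5.22) and 4.53 (SE 5.94). The region 3.30 kb before the start differed by 16.5 (SE 7.56, limma adjusted p = 0.232) in AF9-experienced mice and by -1.11 (SE 8.61) in naive mice. The difference between regions of the gene was not tested.

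**Figure D3:**
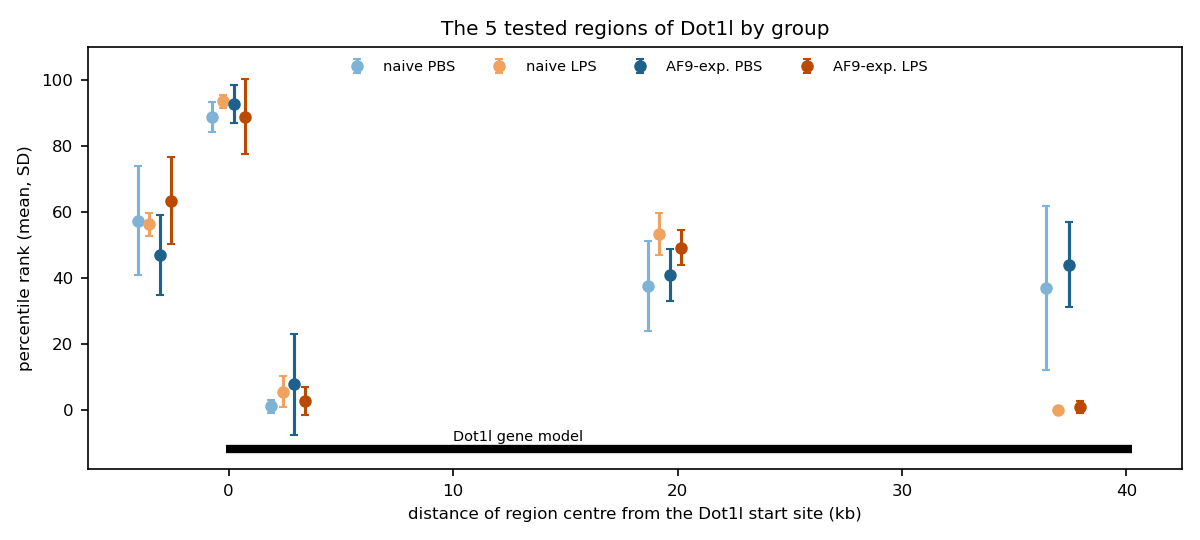
Percentile rank (mean and SD per group) of the 5 tested regions of Dot1l against the distance of each centre from the Dot1l start site, with the gene model as a bar. At 37.2 kb the LPS groups average 0 and 0.802 and the PBS groups 36.9 and 43.9, while at the start all groups lie close together.

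At the remaining genes no LPS difference was called, and 7 of the 24 regions, Dot1l included, had an unadjusted p under 0.05 in AF9-experienced mice, 29.2% beside 19.2% of all regions tested. Of the 24, 4 had a peak in fewer than 3 PBS lists and 2 in fewer than 3 LPS lists. Such regions could not pass the filter through the treatment where they are low, so this count is a description. In Dnmt3a the region 64.4 kb after the first start ranked at 66.7, 79.6, 74.2 and 82.3 after PBS and at 83.8, 79.2, 84.6, 89.8 and 86.8 after LPS. The groups overlap, and the difference was 9.13 (SE 3.12, limma adjusted p = 0.0966). A neighbouring Dnmt3a region at 61.7 kb went the other way by -15.7 (SE 7.04). It had a peak in 1 AF9-experienced LPS list and in 0 naive LPS lists. It thus passed the filter of 3 lists through PBS lists, where it is high, and no p is given for it. The first Dnmt3a start differed by -9.87 (SE 4.70, limma adjusted p = 0.253). The upper end of Kdm6b differed by 8.96 (SE 4.05, limma adjusted p = 0.224). The Kmt2a start differed by -6.41 (SE 2.98, limma adjusted p = 0.240), from 95.1 to 97.7 after PBS to 79.5 to 97.3 after LPS.

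The starts of Ezh2, Asxl1, Mllt3 and Tet2 were not called. The Ezh2 start differed by -1.54 (SE 1.5) in AF9-experienced and -1.36 (SE 1.71) in naive mice, the Asxl1 start by -0.91 (SE 2.60) and 2.24 (SE 2.96), and the Mllt3 start by -1.86 (SE 4.07) and 0.27 (SE 4.63). The Tet2 start differed by 1.22 (SE 9.28) and -2.42 (SE 10.6), with a spread that leaves room for larger differences. In naive mice 0 of the 24 regions were called, beside 3.22% of all regions, 2.00% higher and 1.22% lower, and 1 of the 24, the Dot1l region, had an unadjusted p under 0.05, beside 15.8% of all regions. The regions with the smallest p at the other genes in naive mice included the Tet2 region 38.9 kb before the start, with a difference of 7.87 (SE 4.53), and the Asxl1 region 5.13 kb after the start, with 7.84 (SE 4.82). In AF9-experienced mice these 2 regions differed by 3.75 (SE 3.98) and 5.96 (SE 4.23). The inner Ezh2 region differed by 7.38 (SE 6.17) in naive and 7.04 (SE 5.42) in AF9-experienced mice. All 3 were at 0 in most lists, so their differences rest on few peaks. In naive mice the Men1 start differed by 7.96 (SE 5.64), the Dnmt3a region at 49.2 kb by -6.78 (SE 4.54), the upper end of Kdm6b by 5.63 (SE 4.61) and the Kmt2a start by -2.29 (SE 3.40). The far end of Men1 differed by -8.47 (SE 13.3) in AF9-experienced mice, where 1 PBS and 1 LPS list were low. Over the 24, the median naive difference was 3.39 points, beside 0 over all regions tested.

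**Figure D4:**
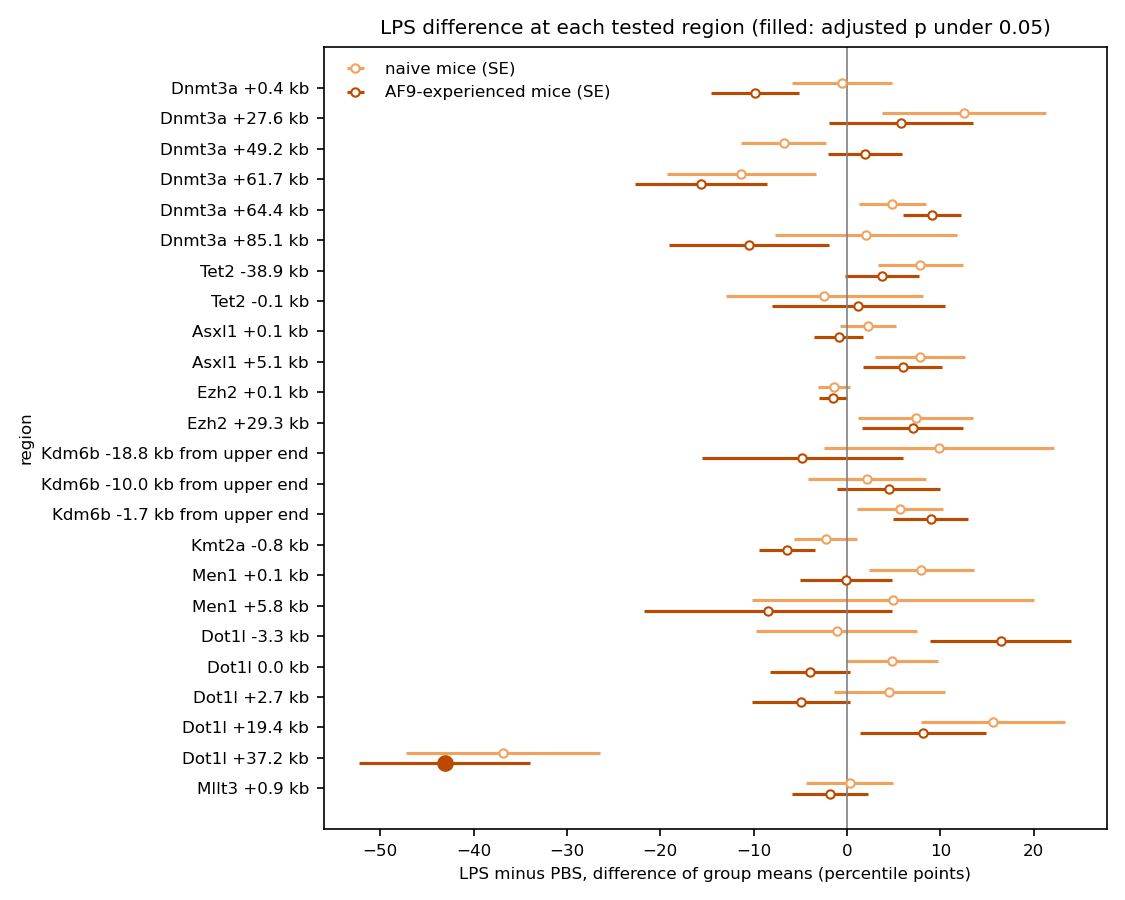
LPS minus PBS at the 24 tested regions (points with SE) in naive and AF9-experienced mice, in percentile points. The Dot1l region at +37.2 kb stands at -36.9 and -43.1, the latter being the only filled point (limma adjusted p under 0.05), and the others lie between -15.7 and 16.5.

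Weaker peaks were compared in other settings. Full lists of all 16 replicates brought in 73 regions of the 9 genes, and full lists at a -log10 q of at least 5 brought in 64. Neither gave a call by limma at these genes or at any other region in either LPS comparison. At an unadjusted p under 0.05 there were 12 and 14 of these regions in AF9-experienced mice and 4 and 3 in naive mice. The share of all regions under this threshold is not given for these 2 settings, so these counts are a description. A setting chosen as an alternative left out those 3 lists and kept the 59600 strongest autosomal peaks of each of the other 13, which brought 51 regions of the 9 genes into 70009 tested. Of the 51, limma called 6 higher after LPS in AF9-experienced mice (11.8%, beside 4.94% of all regions) and 2 lower (3.92%, beside 5.53%). For naive mice the counts were 3 higher (5.88%, beside 3.91%) and 1 lower (1.96%, beside 2.83%). Of the 51, 8 had a peak in fewer than 3 PBS lists, 4 of them in none. A further limit is that 5 had a peak in fewer than 3 LPS lists, 1 of them in none. Such regions could not pass the filter of 3 lists through the treatment where they are low, so these counts are a description. The median fold enrichment of PBS and LPS lists does not overlap among these 13, and its part in these calls was not tested.

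The regions called higher lay away from the gene starts and were weak or missing after PBS. A region 26.4 kb before the Ezh2 start (chr6:47620949-47621953), outside the model, had a rank of 0 in all 6 PBS lists. After LPS it ranked at 45.4 and 48.0 in naive mice and at 53.1, 15.8, 73.9, 56.8 and 59.7 in AF9-experienced mice. This region was picked because it was called. The differences were 46.7 in naive and 51.8 in AF9-experienced mice. It entered the test through LPS lists alone, and no p is given for it. The full lists, which reach weaker peaks, held it after LPS in all 3 naive and all 5 AF9-experienced lists, and after PBS in 0 of 4 naive and 3 of 4 AF9-experienced lists. A second Ezh2 region, 29.3 kb inside the gene, rose from 26.0 ± 6.43 (SD, n = 3) to 69.0 ± 6.38 (SD, n = 5) in AF9-experienced mice (limma adjusted p = 0.00290). Its mean in naive mice went from 35.1 (n = 3) to 67.4 (n = 2), without a call.

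The Asxl1 region 5.19 kb after the start (chr2:153350595-153351454) was called in both backgrounds. Its rank was 32.0, 34.9 and 47.4 in naive PBS and 68.7 and 73.7 in naive LPS lists (limma adjusted p = 0.0322). In AF9-experienced mice it was 18.6, 10.2 and 27.9 after PBS and 52.7, 73.4, 67.2, 61.6 and 72.1 after LPS (limma adjusted p = 7.13e-04). This region too is shown because it was called. In the equal-length lists of 16 the same site had no peak in any PBS list and a rank of at most 18.1 after LPS, so it was tested there and not called.

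Inner regions of Tet2, Dnmt3a and Kmt2a were called higher in AF9-experienced mice alone. In naive mice their means went from 4.88 to 38.4, from 27.3 to 31.6 and from 0 to 16.9 (n = 3 and n = 2), without a call. The Tet2 region, 18.3 kb after the start, averaged 4.35 ± 2.49 after PBS and 33.5 ± 13.2 after LPS (limma adjusted p = 0.0409). The Dnmt3a region, 16.6 kb after the second listed start, averaged 20.4 ± 4.38 and 48.6 ± 4.78 (limma adjusted p = 0.0263), each with n = 3 and n = 5. The Kmt2a region, 2.11 kb after the start, was at 0 in all PBS lists and averaged 28.7 ± 16.9 after LPS (SD, n = 5). It too entered the test through LPS lists alone, and no p is given for it. The difference between backgrounds was not called at any of the 51 regions, so a difference in response was not shown. In naive mice a Dot1l region 8.34 kb after the start rose from 10.7 ± 6.80 (SD, n = 3) to 53.5 ± 10.2 (SD, n = 2) (limma adjusted p = 0.0341).

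Lower calls among the 13 longer lists were at the Dot1l region near the far end, by -29.1 in AF9-experienced and -33.0 in naive mice (limma adjusted p = 0.0118 and 0.0279). The far end of Men1 was lower by -6.46 in AF9-experienced mice (SE 1.95, limma adjusted p = 0.0420), from 91.5 ± 1.69 to 85.0 ± 4.54.

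**Figure D5:**
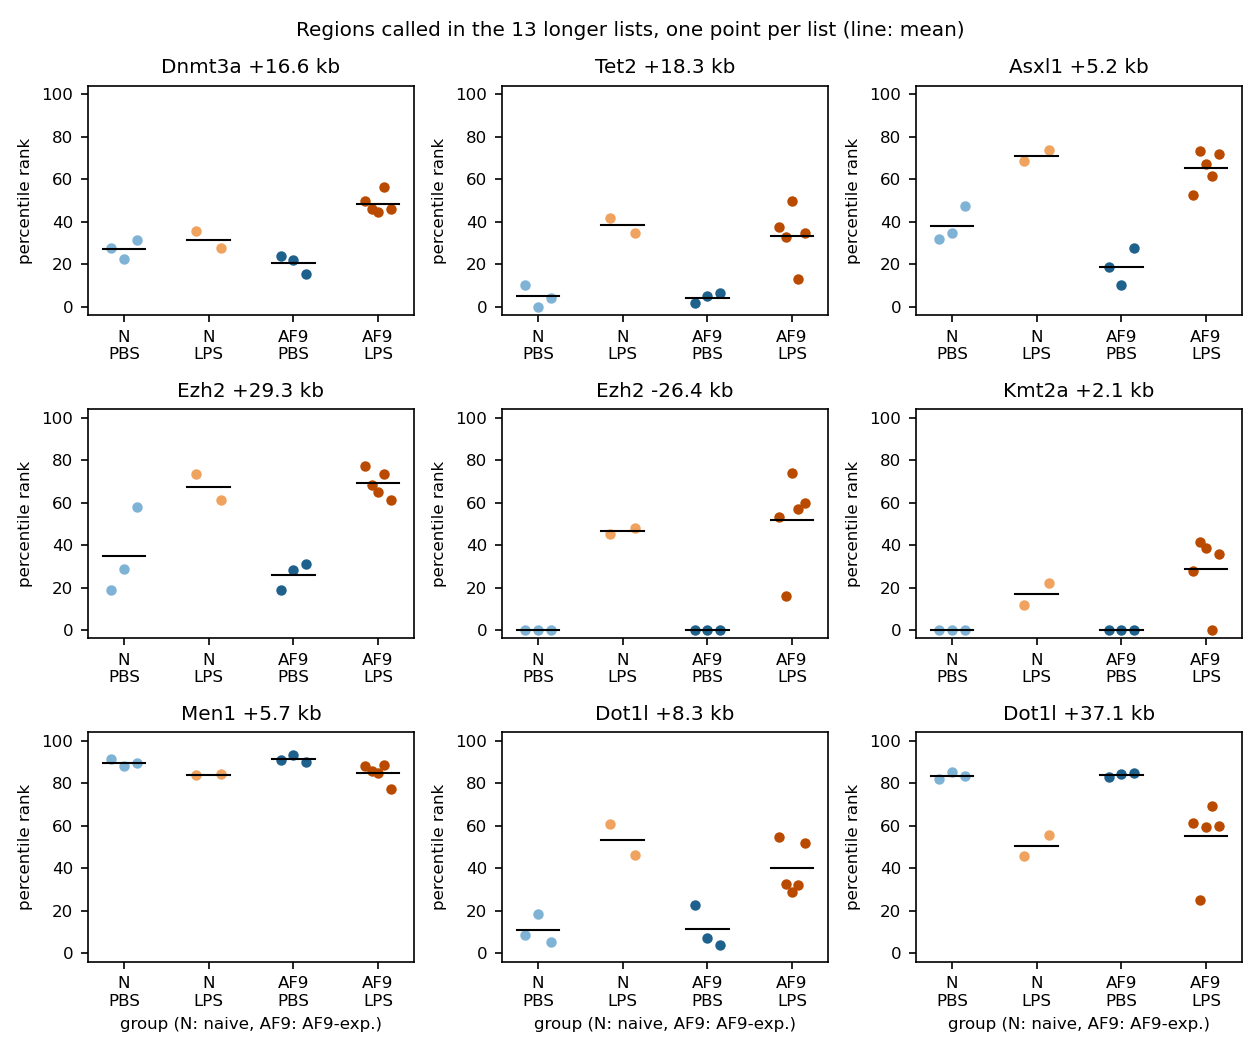
Percentile rank in each of the 13 longer lists (points, with the group mean as a line) at the 9 regions called in either LPS comparison there, labelled by the distance of the centre from the nearest listed start. The Ezh2 region at -26.4 kb and the Kmt2a region at +2.1 kb have a rank of 0 in all 6 PBS lists. The Dot1l region at +37.1 kb averages 83.7 (naive) and 84.0 (AF9-experienced) after PBS and 50.7 and 55.0 after LPS.

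AF9-experienced and naive mice were compared to ask whether an earlier MLL-AF9 disease phase left a difference at these genes. No region of the 9 genes was called after PBS, beside 0% of all regions, and none after LPS, beside 0.0127%. With limma, 0 of the 24 had an unadjusted p under 0.05 in either comparison. Differences after PBS ran from -10.5 at the Dot1l region before the start to 10.9 at the far end of Men1, with a median SE of 5.36 percentile points. After LPS they ran from -11.6 at the lower Kdm6b region to 7.08 at the Dot1l region before the start, with a median SE of 5.53. The smallest p after PBS was at the Men1 start, with a difference of 8.72 (SE 5.22), and naive PBS 1 was the low list there. After LPS it was at the first Dnmt3a start, with -7.95 (SE 5.12). The Asxl1 start differed by 0.11 (SE 2.74) after PBS and -3.04 (SE 2.83) after LPS, and the Ezh2 start by 1.05 (SE 1.58) and 0.87 (SE 1.63). At Tet2 the start differed by -0.33 (SE 9.78) after PBS and the region before it by -4.13 (SE 4.33) after LPS. The inner Kdm6b region differed by -6.05 (SE 5.85) after PBS. Differences within that error would not be detectable with 3 to 5 lists a group, and those of several SE can also be missed. The naive LPS difference at the Dot1l region, -36.9 with SE 10.4, was not called.

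The genes joined in the fusion, and Dot1l, were compared between backgrounds at their starts. After PBS the Kmt2a start averaged 94.8 ± 5.13 (SD, n = 4) in naive and 96.7 ± 1.12 (SD, n = 4) in AF9-experienced mice. The Mllt3 start differed by -0.13 (SE 4.29) and the Dot1l start by 4.07 (SE 4.54) after PBS. After LPS the starts of Kmt2a, Mllt3 and Dot1l differed by -2.30 (SE 3.25), -2.26 (SE 4.43) and -4.66 (SE 4.69). The called Dot1l region differed by 7.04 (SE 9.63) after PBS and 0.80 (SE 9.95) after LPS. The LPS change differed between backgrounds at none of the 24 regions, beside 0% of all regions, and 0 had an unadjusted p under 0.05.

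Other genes of the same pathways were read from 6 lists of 87 genes, of which 78 had at least 1 of 153 tested regions. The LPS comparison in AF9-experienced mice gave 5 higher and 3 lower calls, 5.23% of the 153, near the 5.18% of all regions. That in naive mice gave 2 higher calls and 1 lower call, 1.96%, beside 3.22% of all regions. None was called between backgrounds or in the difference of LPS changes. There 10, 6 and 0 regions had an unadjusted p under 0.05 after PBS, after LPS and in the difference. Over all regions tested the shares under this threshold were 3.20%, 5.39% and 2.94%.

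Of 21 regions linked to 12 genes of histone demethylases and H3K36 methylation, 2 were called higher in AF9-experienced mice, 9.52% beside 3.44% of all regions. A region inside Nsd3, an H3K36 methyltransferase gene, was at 0 in all PBS lists and averaged 48.6 ± 14.3 (SD, n = 5) after LPS. One 7.66 kb from Kdm5a, an H3K4 demethylase gene, rose from 4.30 ± 8.60 (SD, n = 4) to 55.8 ± 3.19 (SD, n = 5). The Nsd3 region entered the test through LPS lists alone, and no p is given for it. The limma adjusted p at Kdm5a was 0.00126, and that call held without any 1 list. The Kdm5a region also rose in naive mice, by 42.3 (SE 10.1, limma adjusted p = 0.0208), a call lost in 5 of 16 fits without 1 list. After PBS only the short lists naive PBS 1 (46.7) and AF9-experienced PBS 1 (17.2) held a peak there. The Kdm5a region thus passed the filter of 3 lists through LPS lists, where it is high, and its p-values are a description.

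Of 34 regions linked to 17 Polycomb genes, 1 was called higher and 2 lower in AF9-experienced mice, 2.94% and 5.88% beside 3.44% and 1.74% of all regions. A region 5.27 kb from Ezh1, the paralog of Ezh2, rose by 36.9 (SE 8.65, limma adjusted p = 0.0140), a call lost without AF9-experienced PBS 4 (limma adjusted p = 0.0620). One inside Cbx7, a subunit of Polycomb repressive complex 1, averaged 25.7 ± 9.42 (SD, n = 4) after PBS and was at 0 in all 5 LPS lists. It entered the test through PBS lists alone, and no p is given for it. The end of Cbx8 fell by 5.63 (limma adjusted p = 0.0462), and in naive mice a region 38.7 kb from Eed rose by 30.6 (limma adjusted p = 0.0419), calls lost in 12 and 10 of 16 fits without 1 list.

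In the list of MLL fusion partners and elongation factors, which holds 13 genes tested, Ell carried both of the calls among 32 regions in AF9-experienced mice. They were 1 higher and 1 lower call, each 3.1%, beside 3.44% and 1.74% of all regions. One inner region of Ell, an elongation factor gene, was at 0 in all PBS lists and averaged 25.7 ± 8.96 (SD, n = 5) after LPS. It entered the test through LPS lists alone, and no p is given for it. Another fell by 32.5 (limma adjusted p = 0.0427), a call lost in 9 of 16 fits without 1 list. In the ASXL, BAP1 and acetylation list, with 12 genes tested, the end of Kat6b rose by 7.91 in AF9-experienced mice (limma adjusted p = 0.0442), a call lost in 10 of 16 such fits. It was 3.57% of the 28 regions of that list, beside 3.44% of all regions called higher. No gene was called among 11 DNA methylation genes, with 21 regions, or 13 genes of the MLL methyltransferase complexes, with 17. There 5 and 1 regions had an unadjusted p under 0.05 in AF9-experienced mice, beside 19.2% of all regions. In naive mice 1 and 0 regions did, beside 15.8% of all regions.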

How the data were processed

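ATAC-seq was made from 16 biological replicates, each labelled with 2 technical libraries (32 samples), and each replicate has 1 peak list, whose name gave its group and number. Per the submitters' processing notes, FastQC, Trim Galore, BWA, Picard and MACS3 were used, without versions, with build GRCm38. The labels name both Omni-ATAC and a Chromium library chemistry. The deposited lists give for each peak the authors' fold enrichment, a ratio to background, and the authors' -log10 p and -log10 q. These are the peak's own values and were used to rank and describe peaks within a list. Read depth is unknown, so no counting intervals are given.

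Ranks were computed as described above; a rank can move when other regions move, and a difference in percentile points is not one in accessibility. Peaks were linked to 21887 protein-coding models (RefSeq, GRCm38.p6). Group means were estimated from the 16 lists together with limma 3.58.1 (R 4.3.3, trend and robust), so groups shared 1 estimate of spread. P-values measure the spread between samples labelled as biological replicates. The fit was also run on simulated data, whose outcome is not given here and is not used as support. The genes and lists were chosen with earlier results of these data known. Regions named were those at gene ends, those called, and those with the smallest p per comparison, with up to 3 called genes per comparison in each pathway list. The result at 1 further gene of these lists is not reported here, though its regions are in the counts. In the setting with 13 lists, all called regions were named. Alternatives covered list length, ranking, region definition, filter, weights, replicate block and leaving out lists.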

Additional observations from a re-analysis of the deposited data

Results flagged for a closer look

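Within groups of 4 or 5 lists, 67 sets of values at the 24 regions were examined, and in 13 the highest or lowest list stood apart from the others by Dixon's ratio. In 6 of the 13 all other lists of the group were at 0, where the ratio is 1 by construction, so the usual chance rate of about 1 in 20 groups does not apply to the count. AF9-experienced LPS 5 accounts for 4, and the short lists naive PBS 1 and AF9-experienced PBS 1 for 3 each.

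Naive PBS 1 was low at both ends of Men1, at 45.9 at the start (others 74.8 to 77.3) and 0 at the far end (others 63.2 to 73.1), and high at the upper end of Kdm6b, at 81.6 (others 67.2 to 68.3). AF9-experienced PBS 1 was low at the Tet2 start, at 29.4 (others 69.8 to 75.9). It alone of its group had a peak at the Dot1l region 2.65 kb after the start, at 30.8, and at the inner Ezh2 region, at 9.55. AF9-experienced LPS 5 was low at the Dot1l start, at 69.0 (others 89.9 to 95.6), and at the Tet2 start, at 33.6 (others 63.5 to 75). It alone of its group had a peak at the Dnmt3a region at 61.7 kb, at 21.9, and at the Tet2 region 38.9 kb before the start, at 18.7. AF9-experienced LPS 3 was low at the Dnmt3a region at 27.6 kb, at 30.5 (others 38.2 to 41.2). AF9-experienced LPS 4 alone of its group had a peak at the called Dot1l region, at 4.01. Naive PBS 3 alone of its group had one at the Dot1l region 2.65 kb after the start, at 3.96.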

How the results depend on the processing

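Over 14 other settings and 16 fits without 1 list, no region of the 9 genes was called between backgrounds. None was called in the difference of LPS changes, which 13 of the 14 settings give. In AF9-experienced mice the count of called regions, 1, was 0 with half-length lists, full lists, lists at a -log10 q of at least 5, ranking by fold or 50% cover. It was 2 without the short lists, 8 with 13 longer lists, 4 with library weights, and 2 with the median fold or the number of Y chromosome peaks as a covariate, both added after seeing the data. The count was 1 in each fit without 1 list. In naive mice the count, 0, was 1 without the short lists, with library weights or with the median fold covariate, 4 with longer lists, and 0 to 1 without 1 list. No difference called in the 16 equal-length lists reversed. Over all regions, calls ranged from 0 to 7327 in AF9-experienced and 0 to 4714 in naive mice. Full lists gave 0 in both.

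Same-numbered lists of different groups did not deviate together: over 21 pairs the correlation of deviations was -0.22 to 0.23, and 3 pairs were over 0.1. With the replicate block the Dot1l region differed by -42.9 in AF9-experienced mice (limma adjusted p = 0.0128), with 1 region called, and by -34.2 in naive mice (limma adjusted p = 0.0864), with 0 called. The block changed no other call at these genes. Short lists limit the comparison to strong peaks, and a rank of 0 covers both weak and missing peaks.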
